A study of Mus musculus with 8 samples.

Results

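The 10 genes described here encode cytokines and cytokine receptors of fibro/adipogenic progenitors (FAPs). They were chosen by name, with earlier results of these data known, and they are 10 of the 31053 genes counted. *Il6*, *Lif* and *Il11* encode ligands of the interleukin-6 (IL-6) family, and *Il6st* and *Osmr* encode receptors of that family. *Il33* and its receptor gene *Il1rl1* form the IL-33 axis. *Tslp*, *Csf1* and the IL-4 receptor gene *Il4ra* complete the group. FAPs are mesenchymal cells of skeletal muscle that can become adipocytes or fibroblasts.

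The cells came from hind limb skeletal muscles of C57BL/10ScSn-Dmdmdx/J (*mdx*) mice aged 45 days, which lack dystrophin. They were sorted as SCA-1-positive cells without CD45, CD31 and Integrin alpha-7 and split by the level of the surface antigen SCA-1 into SCA1-High-FAPs and SCA1-Low-FAPs. RNA was taken from both cell states after 5 days of culture in GM, a growth medium, with 4 replicates of each, and no wild type cells were among the samples. Libraries were made from the 3′ ends of mRNA, so that a transcript gives reads near its 3′ end whatever its length, and the deposited values are counts of reads per gene. The labels give no sex and do not say whether equal replicate numbers mean the same mouse, so *p*-values refer to the spread between these samples.

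Cytokines of the IL-6 family bind a receptor chain of their own and then gp130, the product of *Il6st*, which nearly all of them share and which signals through JAK kinases and the transcription factor STAT3. IL-33 is a nuclear protein released from damaged cells that acts on ST2, the product of *Il1rl1*, together with the co-receptor encoded by *Il1rap*. In muscle, FAPs are known as a source of IL-6 and IL-33, and IL-4 signalling through IL-4R alpha acts on FAPs themselves and restrains adipogenesis.

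Levels are given as CPM, counts scaled to a common library size after normalisation with the TMM method and not divided by transcript length. Between 1880561 and 3985656 reads were counted on genes per library, and 3 counts, taken as the least that can be told from 0, stood at 0.792 to 1.63 CPM. This limit covers counting error only. Differences are log2 fold changes, with SCA1-Low-FAPs in the numerator and SCA1-High-FAPs as the base, and carry a standard error (SE). A value below 0 therefore marks a gene with more mRNA in SCA1-High-FAPs. A gene was called when its adjusted *p*-value from edgeR's quasi-likelihood test was under 0.05 and its log2 fold change was beyond 0.5 in size. The group names refer to the antigen at sorting: after culture *Ly6a* mRNA, which encodes SCA-1, stood at 492 to 919 CPM in SCA1-High-FAPs and at 1014 to 1156 CPM in the SCA1-Low-FAPs libraries (log2 fold change 0.61, edgeR adjusted p = 0.0341), against the direction of the names. The FAP marker *Pdgfra* was read at 177 to 291 CPM and 157 to 188 CPM, in that order, without being called. Of the 6 FAP markers listed, *Ly6a* was called as higher in SCA1-Low-FAPs and *Dcn*, which encodes decorin, as higher in SCA1-High-FAPs, at 366 to 1037 CPM against 89.8 to 209 CPM (log2 fold change −2.08, edgeR adjusted p = 0.0167). Markers of adipocytes summed to 958 to 4544 CPM in SCA1-High-FAPs and 116 to 599 CPM in SCA1-Low-FAPs, with no gene of the 6 listed at 0 counts. Of the 5 that were tested, 3 were called as higher in SCA1-High-FAPs. *Plin1* (log2 fold change −2.45, edgeR adjusted p = 0.0751) and *Fabp4* (−2.77, edgeR adjusted p = 0.101) were also higher there, without overlap, but did not pass the adjusted threshold. Every SCA1-High-FAPs library was above every SCA1-Low-FAPs library for 7.46% of all genes tested. Markers of dividing cells summed to 602 to 827 CPM and 1160 to 1716 CPM, and all 8 were higher in SCA1-Low-FAPs. Endothelial markers summed to at most 7.39 CPM in any library and myogenic markers to at most 12.5 CPM, with *Pax7*, *Myf5*, *Myod1* and *Myog* at 0 counts. Markers of pericytes and smooth muscle summed to 23.8 to 44.7 CPM in SCA1-High-FAPs and 27.3 to 67.0 CPM in SCA1-Low-FAPs, with no gene of the 5 at 0 counts. All 3 that were tested were called, *Cspg4* (log2 fold change 2.40) and *Myh11* (1.85) as higher in SCA1-Low-FAPs and *Notch3* (−1.54) as higher in SCA1-High-FAPs, and their part in the results was not tested. Leucocyte markers summed to at most 2.71 CPM and 2.72 CPM, with 3 of 8 at 0 counts. Mast cell markers summed to 0.418 to 8.00 CPM in SCA1-High-FAPs and had no counts in SCA1-Low-FAPs, with *Cpa3*, *Fcer1a* and *Mcpt4* at 0 counts throughout. The counts were all of *Kit*, with 17, 1, 1 and 3 in SCA1-High-FAPs replicates 1 to 4.

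Of the 10 genes, 8 had enough counts to be tested and 2 were called. *Il1rl1* was higher in SCA1-Low-FAPs and *Il6st* was higher in SCA1-High-FAPs. In bulk RNA of this kind, fewer cells that express a gene and less of its RNA per cell cannot be told apart. Among all 10181 genes tested, 7.68% were called, 3.32% with the higher level in SCA1-Low-FAPs and 4.36% with the higher level in SCA1-High-FAPs. Over the 8 genes the median difference on the log2 scale was 0.25, beside 0.0003 over all genes tested, with 4 of them below 0 and 4 above. *Il11* and *Csf1* were higher on average in SCA1-Low-FAPs without passing the adjusted threshold. *Lif* had no counts in any library, and *Il33* had too few for the test across genes.

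In order of mean level over the 8 libraries, *Csf1* stood first at 987 CPM, above 98.8% of the genes tested. *Il6st* followed at 492 CPM, *Il4ra* at 376 CPM and *Osmr* at 84.1 CPM. *Il1rl1* was at 18.1 CPM, *Il6* at 11.5 CPM, *Il11* at 7.40 CPM, *Tslp* at 6.60 CPM and *Il33* at 4.50 CPM. The ranges over libraries separated *Il4ra* from *Osmr* and *Osmr* from *Il1rl1*, whereas all other neighbours in this order overlapped. The abundant mRNAs were thus those of 1 ligand, *Csf1*, and of the receptor chains *Il6st* and *Il4ra*.

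**Figure D1:**
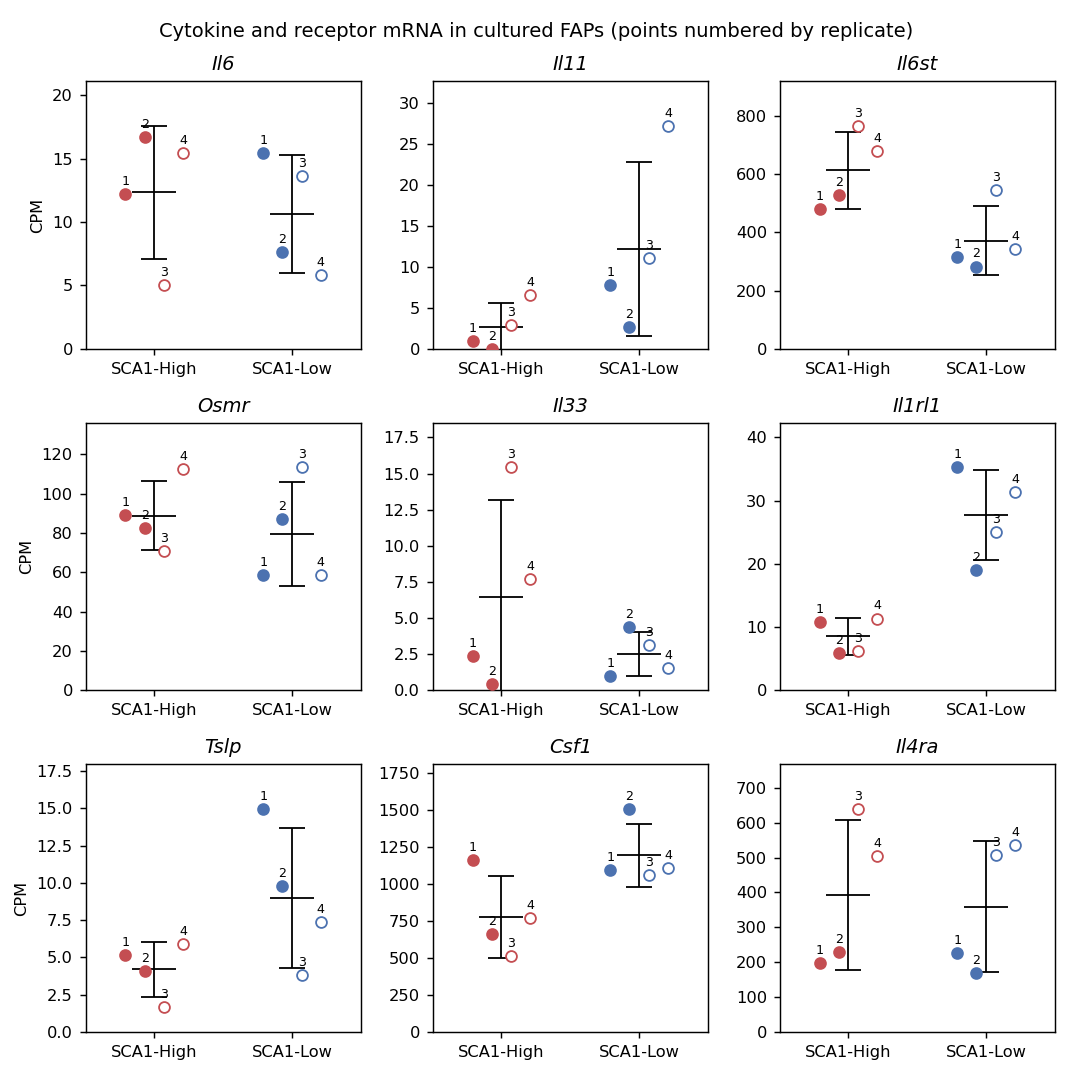
CPM of 9 of the 10 genes in each library of SCA1-High-FAPs (red) and SCA1-Low-FAPs (blue), with the replicate number beside each point; horizontal lines are means and bars are SD (n = 4), which are cut off at 0. Filled points are replicates 1 and 2 and open points replicates 3 and 4. *Il1rl1* is the only gene of the 9 whose groups do not overlap, and *Lif*, with 0 counts throughout, is not drawn.

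*Il6*, on chromosome 5 of GRCm38 from 30013114 to 30019981 on the plus strand, encodes IL-6, a cytokine of acute inflammation and of muscle repair. Its level in SCA1-High-FAPs replicates 1 to 4 was 12.2, 16.7, 5.01 and 15.4 CPM, and in SCA1-Low-FAPs 15.5, 7.62, 13.6 and 5.81 CPM. High and low libraries occurred in both cell states and the groups overlapped over most of their range. A log2 fold change of −0.22 ± 0.45 (SE, edgeR adjusted p = 0.843) had a 95% interval from −1.18 to 0.73.

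*Il11*, on chromosome 7 of GRCm38 from 4772373 to 4782859 on the minus strand, encodes IL-11, a cytokine of the same family linked to fibrosis. Counts in SCA1-High-FAPs replicates 1 to 4 were 2, 0, 7 and 18, or 0.942, 0, 2.92 and 6.60 CPM. In SCA1-Low-FAPs they were 16, 5, 35 and 103, or 7.73, 2.72, 11.1 and 27.2 CPM. Replicate 4 was the highest library of each cell state, and the groups overlapped between 2.72 and 6.60 CPM. The log2 fold change of 2.18 ± 0.81 (SE) was larger than that of any other of the 8 genes tested, with a 95% interval from 0.44 to 3.92, but it did not pass (edgeR adjusted p = 0.125). Without SCA1-High-FAPs replicate 4 the log2 fold change was 3.20 with an adjusted p of 0.0459, which passed, and without SCA1-Low-FAPs replicate 4 it was 1.41 with an adjusted p of 0.444. *Lif*, which encodes leukaemia inhibitory factor, had 0 counts in all 8 libraries. The limit of 0.792 to 1.63 CPM holds for each library alone. With 0 counts in all 8, a level shared by the libraries would have to lie further below it.

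*Il6st* lies on chromosome 13 of GRCm38 from 112464070 to 112510086 on the plus strand and encodes gp130. Its promoter is shown because it is a called gene whose product serves both IL-6 and IL-11. It spans chr13:112463820-112464119 on the plus strand of GRCm38.p6, from 250 bases before to 50 bases after the RefSeq start. Capitals mark matches, on either strand, to the GC box GGGCGG and the CCAAT box CCAAT.
Il6st promoter: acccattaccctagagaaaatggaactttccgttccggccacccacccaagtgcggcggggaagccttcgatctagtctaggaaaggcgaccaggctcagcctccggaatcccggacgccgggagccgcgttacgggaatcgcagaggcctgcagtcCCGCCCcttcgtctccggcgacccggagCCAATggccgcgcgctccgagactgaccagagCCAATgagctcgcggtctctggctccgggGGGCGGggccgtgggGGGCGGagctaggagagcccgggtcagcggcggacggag
This window is 68.3% G and C, above the median of 52.7% over 32851 RefSeq windows of the same length. It holds 3 GC boxes, a motif in 35.7% of all windows, and 2 CCAAT boxes, a motif in 37.4%. No match to the STAT motif TTCNNNGAA (8.30% of windows), the AP-1 motif TGANTCA (7.81%) or the TATA box TATAAA (13.6%) was present in these letters.

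*Il6st* mRNA was at 479, 527, 765 and 678 CPM in SCA1-High-FAPs replicates 1 to 4 and at 316, 283, 546 and 341 CPM in SCA1-Low-FAPs. In both cell states replicate 3 was the highest, and SCA1-Low-FAPs replicate 3 lay above the lower SCA1-High-FAPs libraries, so the groups overlapped. Means were 612 ± 133 CPM (SD, n = 4) and 371 ± 119 CPM (SD, n = 4), 1.65 times higher in SCA1-High-FAPs. On the log2 scale the fold change was −0.72 ± 0.20 (SE, edgeR adjusted p = 0.0406), with a 95% interval from −1.15 to −0.29. The call lay close to the threshold. It was kept in every alternative fit with all 8 libraries. DESeq2 gave an adjusted p of 0.0147, and edgeR with the replicate number as a block gave 0.0133. The call was lost in 6 of the 8 fits that left out 1 library, namely without SCA1-High-FAPs replicate 2, 3 or 4 or SCA1-Low-FAPs replicate 1, 2 or 4. Over these 8 fits the log2 fold change ran from −0.98 to −0.60 and the adjusted p from 0.00213 to 0.141. The genes whose centred log2 CPM lay nearest to that of *Il6st* over the 8 libraries were *Rev3l*, *Adamts4* and *Lamp2*, with root mean square differences of 0.11, 0.12 and 0.13.

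*Osmr*, on chromosome 15 of GRCm38 from 6813577 to 6874969 on the minus strand, encodes the receptor chain that joins gp130 to bind oncostatin M. It was at 89.0, 82.7, 71.0 and 113 CPM in SCA1-High-FAPs and at 58.5, 87.1, 114 and 58.6 CPM in SCA1-Low-FAPs. The groups overlapped, and the highest library came from SCA1-Low-FAPs replicate 3. The log2 fold change of −0.16 ± 0.22 (SE) did not pass (edgeR adjusted p = 0.75), and its 95% interval ran from −0.63 to 0.31.

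Other receptor chains of the family were measured from a list of pathway genes. *Lifr* encodes the receptor chain for leukaemia inhibitory factor and also pairs with gp130. It was at 84.7, 85.4, 155 and 121 CPM in SCA1-High-FAPs and at 27.1, 15.8, 61.5 and 37.8 CPM in SCA1-Low-FAPs. All 4 SCA1-High-FAPs libraries were above all 4 of SCA1-Low-FAPs, and the log2 fold change was −1.62 ± 0.34 (SE, edgeR adjusted p = 0.0134). *Il11ra1*, the IL-11 receptor chain, was at 268 to 496 CPM and 166 to 258 CPM (log2 fold change −0.66, edgeR adjusted p = 0.0383), again without overlap. Such a separation, with SCA1-High-FAPs above, was found for 7.46% of the genes tested. The *Lifr* call was lost without SCA1-Low-FAPs replicate 1 (adjusted p = 0.0524) or 4 (adjusted p = 0.0628), and the *Il11ra1* call was lost in 5 of the 8 fits that left out 1 library, those without SCA1-High-FAPs replicate 2 or 3 or SCA1-Low-FAPs replicate 1, 2 or 4, with adjusted p up to 0.127. Thus, with all libraries, the 3 called receptor chains of the family, *Il6st*, *Lifr* and *Il11ra1*, were all higher in SCA1-High-FAPs, while *Osmr* was not called. *Il6ra*, the IL-6 binding chain, had 0 to 18 counts per library and was not tested; it was looked up after the values were seen. Among the other ligands, *Clcf1*, which encodes a cytokine of the family, was at 2.09 to 9.89 CPM and 12.4 to 18.2 CPM, with a log2 fold change of 1.25 that did not pass (edgeR adjusted p = 0.108).

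**Figure D2:**
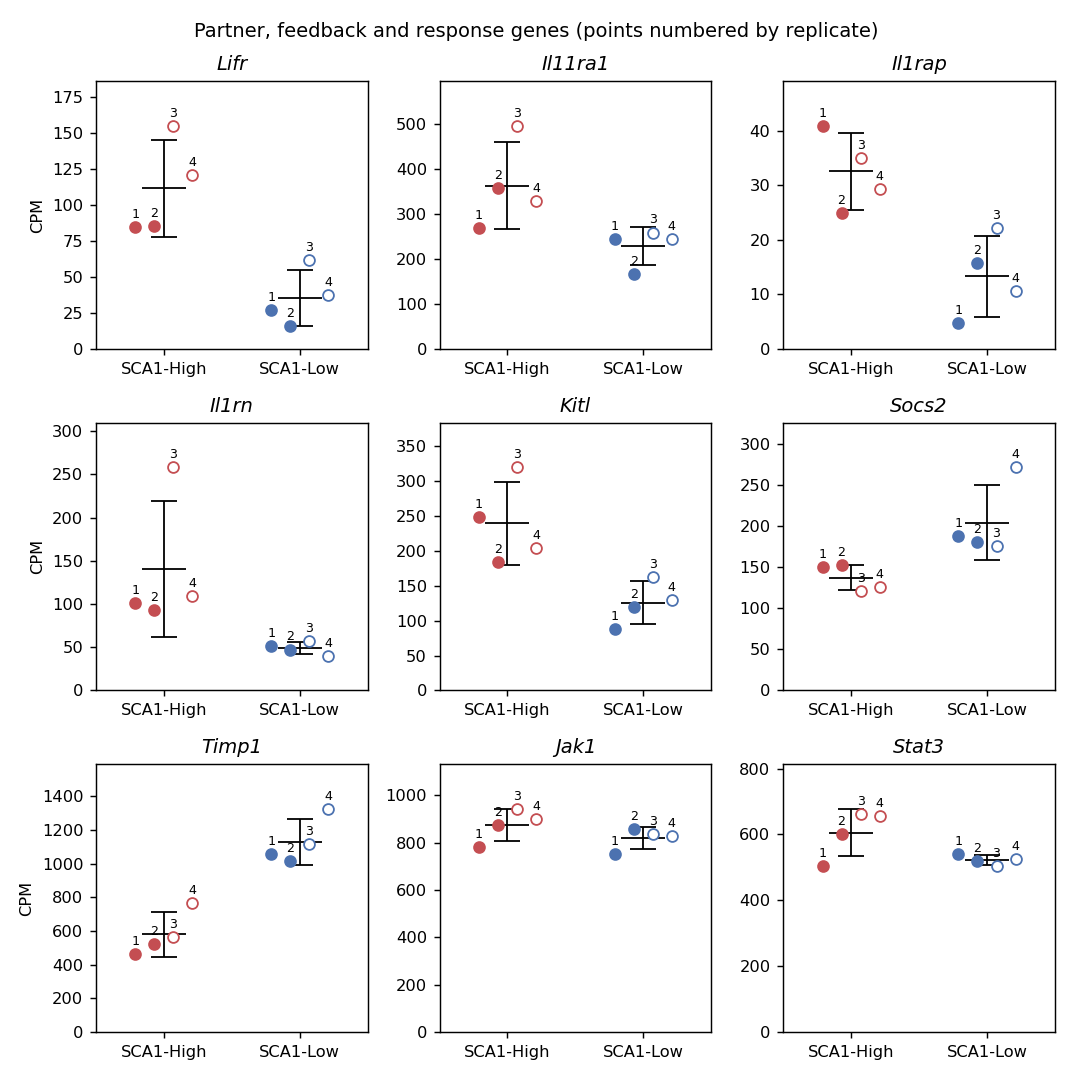
CPM of 7 called pathway genes and of *Jak1* and *Stat3*, which were not called, in each library of SCA1-High-FAPs (red) and SCA1-Low-FAPs (blue), drawn as for the cytokine genes with means and SD (n = 4). *Lifr*, *Il11ra1*, *Il1rap*, *Il1rn* and *Kitl* lie higher in SCA1-High-FAPs and *Socs2* and *Timp1* in SCA1-Low-FAPs.

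*Il33*, on chromosome 19 of GRCm38 from 29925114 to 29960718 on the plus strand, encodes IL-33. It was at 2.35, 0.452, 15.4 and 7.70 CPM in SCA1-High-FAPs and at 0.967, 4.36, 3.17 and 1.58 CPM in SCA1-Low-FAPs, from 1 to 37 counts per library. SCA1-High-FAPs replicates 3 and 4 stood above all other libraries, whereas replicates 1 and 2 lay within the range of SCA1-Low-FAPs or under it. The mean log2 CPM, with 2 counts added to each library, was lower by 0.67 in SCA1-Low-FAPs, which did not exceed the replicate spread (exact permutation test, two-sided, over 70 assignments, p = 0.514, smallest possible 0.0286).

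*Il1rl1* encodes ST2, which occurs as a membrane receptor and as a soluble form that binds IL-33 without signalling. The gene lies on chromosome 1 of GRCm38 from 40429570 to 40465415 on the plus strand, and RefSeq gives it 2 starts. Both promoters are shown because this gene separated the cell states in every library. The upstream one is chr1:40429320-40429619 and the downstream one chr1:40439379-40439678, both on the plus strand of GRCm38.p6, with capitals as for *Il6st*.
Il1rl1 upstream promoter: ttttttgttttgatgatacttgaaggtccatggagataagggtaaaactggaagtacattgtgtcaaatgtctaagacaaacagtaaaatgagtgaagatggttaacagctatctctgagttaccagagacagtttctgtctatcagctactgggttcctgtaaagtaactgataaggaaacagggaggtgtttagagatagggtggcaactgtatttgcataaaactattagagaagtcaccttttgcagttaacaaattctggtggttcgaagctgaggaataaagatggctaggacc
Il1rl1 downstream promoter: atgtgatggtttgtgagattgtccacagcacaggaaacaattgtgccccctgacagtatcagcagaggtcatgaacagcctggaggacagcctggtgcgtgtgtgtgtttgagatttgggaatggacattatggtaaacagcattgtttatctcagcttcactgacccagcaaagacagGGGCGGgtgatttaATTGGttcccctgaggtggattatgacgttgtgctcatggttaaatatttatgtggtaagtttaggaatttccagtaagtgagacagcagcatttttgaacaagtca
The upstream window is 38.7% G and C and holds none of the 5 motifs. The downstream window is 44.7% G and C and holds 1 GC box and 1 CCAAT box on the minus strand. Reads from the 3′ end do not tell which start was used. Annotated transcripts of the gene end at 40446723 or 40465415, among other positions, and the counts sum over all of them, so that the soluble and the membrane form cannot be told apart.

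*Il1rl1* mRNA was at 10.8, 5.88, 6.26 and 11.4 CPM in SCA1-High-FAPs replicates 1 to 4 and at 35.3, 19.1, 25.1 and 31.4 CPM in SCA1-Low-FAPs, from 13 to 119 counts per library. Every SCA1-Low-FAPs library was above every SCA1-High-FAPs library, a separation in this direction found for 6.67% of the genes tested, and in either direction for 14.1%. Means were 8.58 ± 2.92 CPM (SD, n = 4) and 27.7 ± 7.14 CPM (SD, n = 4), 3.23 times higher in SCA1-Low-FAPs. Its fitted log2 fold change was 1.68 ± 0.34 (SE, edgeR adjusted p = 0.00535), with a 95% interval from 0.97 to 2.40. It was called in all 8 fits that left out 1 library, with log2 fold changes of 1.55 to 1.86 and adjusted p of 0.00594 to 0.0289. The nearest genes by centred log2 CPM over the 8 libraries were *Thyn1*, *Birc5* and *Grem1*, with root mean square differences of 0.27, 0.29 and 0.29. *Birc5* is one of the markers of dividing cells whose summed level also differed between the cell states, and the part of cell division in the *Il1rl1* result was not tested.

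The co-receptor and the inhibitor of the IL-1 family moved the other way from *Il1rl1*. *Il1rap*, the chain that ST2 needs to signal, was at 41.0, 24.9, 35.1 and 29.3 CPM in SCA1-High-FAPs and at 4.83, 15.8, 22.2 and 10.6 CPM in the SCA1-Low-FAPs libraries (log2 fold change −1.27 ± 0.36 SE, edgeR adjusted p = 0.0383). This call was kept only without SCA1-High-FAPs replicate 2 or SCA1-Low-FAPs replicate 3 and was lost in the other 6 fits that left out 1 library, with adjusted p up to 0.123. *Il1rn*, which encodes the IL-1 receptor antagonist, was at 93.1 to 258 CPM and 40.4 to 57.1 CPM (log2 fold change −1.52, edgeR adjusted p = 0.00813). Neither gene overlapped between the cell states, a separation in this direction found for 7.46% of the genes tested. *Il1r1*, the IL-1 receptor, was at 336 to 730 CPM and 218 to 443 CPM, and its log2 fold change of −0.61 did not pass (edgeR adjusted p = 0.273), although it did in a fit with the presence of *Xist* RNA as a covariate (−0.60, edgeR adjusted p = 0.016). *Il6st*, *Lifr*, *Il11ra1*, *Il1rap* and *Il1rn* were all higher in the cell state with the higher adipocyte markers, and the part of adipocyte-like cells in these results was not tested.

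*Tslp* encodes thymic stromal lymphopoietin, a cytokine of barrier tissues and stromal cells. It was at 5.18, 4.07, 1.67 and 5.87 CPM in SCA1-High-FAPs and at 14.98, 9.80, 3.81 and 7.39 CPM in SCA1-Low-FAPs, from 4 to 31 counts per library. SCA1-Low-FAPs replicate 3 lay inside the range of SCA1-High-FAPs, and the other 3 libraries were above it. The log2 fold change of 1.07 ± 0.57 (SE) did not pass (edgeR adjusted p = 0.305), and its 95% interval from −0.14 to 2.28 includes 0. *Crlf2*, which encodes the TSLP receptor chain, was at 31.5 to 53.0 CPM and 20.7 to 37.5 CPM (log2 fold change −0.39, edgeR adjusted p = 0.416).

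*Csf1*, on chromosome 3 of GRCm38 from 107741048 to 107760469 on the minus strand, encodes the macrophage colony-stimulating factor, on which macrophages depend for survival. It was at 1163, 665.5, 516 and 772 CPM in SCA1-High-FAPs and at 1094, 1511, 1061 and 1112 CPM in SCA1-Low-FAPs. SCA1-High-FAPs replicate 1 lay among the SCA1-Low-FAPs libraries and the other 3 lay under all of them. The log2 fold change of 0.62 ± 0.21 (SE) had a 95% interval from 0.17 to 1.06 and did not pass (edgeR adjusted p = 0.0889). Without SCA1-High-FAPs replicate 1 it was 0.88 with an adjusted p of 0.00927, which passed, while the other 7 fits that left out 1 library did not pass, with values down to 0.46 and adjusted p up to 0.237. By DESeq2 on all libraries it was 0.62 with an adjusted p of 0.0435. *Il34*, which encodes the other ligand of the CSF1 receptor, was at 9.17 to 28.7 CPM and 7.73 to 15.8 CPM (log2 fold change −0.83, edgeR adjusted p = 0.244). *Kitl*, the ligand of the receptor KIT, was higher in SCA1-High-FAPs at 184 to 320 CPM against 88.5 to 163 CPM (log2 fold change −0.93, edgeR adjusted p = 0.00897).

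*Il4ra*, on chromosome 7 of GRCm38 from 125552120 to 125579474 on the plus strand, encodes IL-4R alpha, the chain that binds IL-4 and also serves IL-13. It was at 197, 230, 640 and 505 CPM in SCA1-High-FAPs and at 228, 168, 507 and 535 CPM in SCA1-Low-FAPs. The cell states overlapped over nearly the whole range, and the log2 fold change was −0.13 ± 0.55 (SE, edgeR adjusted p = 0.934) with a 95% interval from −1.43 to 1.18. The spread lay within the cell states: replicates 3 and 4 of both were high and replicates 1 and 2 of both were low. *Xist*, the RNA that coats the inactive X chromosome of female cells, had 0 counts in the same 4 low libraries and 342 to 507 CPM in the 4 high ones, and *Ddx3y* and the other Y-linked genes *Eif2s3y*, *Kdm5d* and *Uty* had counts in the former. *Il4ra* averaged 547 CPM in the libraries with *Xist* and 206 CPM in those without, 2.66 times higher, with no overlap. Of the genes tested, 1.32%, or 134, were higher in all 4 libraries with *Xist*, and 10 of these, *Il4ra* among them, had a ratio at least this large. This is a description of libraries sorted by the counts of *Xist*, without a test, and sex cannot be told apart from anything else that replicates 3 and 4 shared. *Il13ra1*, which pairs with IL-4R alpha, was at 23.1 to 63.4 CPM in SCA1-High-FAPs and 19.1 to 39.3 CPM in the SCA1-Low-FAPs libraries (log2 fold change −0.33, edgeR adjusted p = 0.622).

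**Figure D3:**
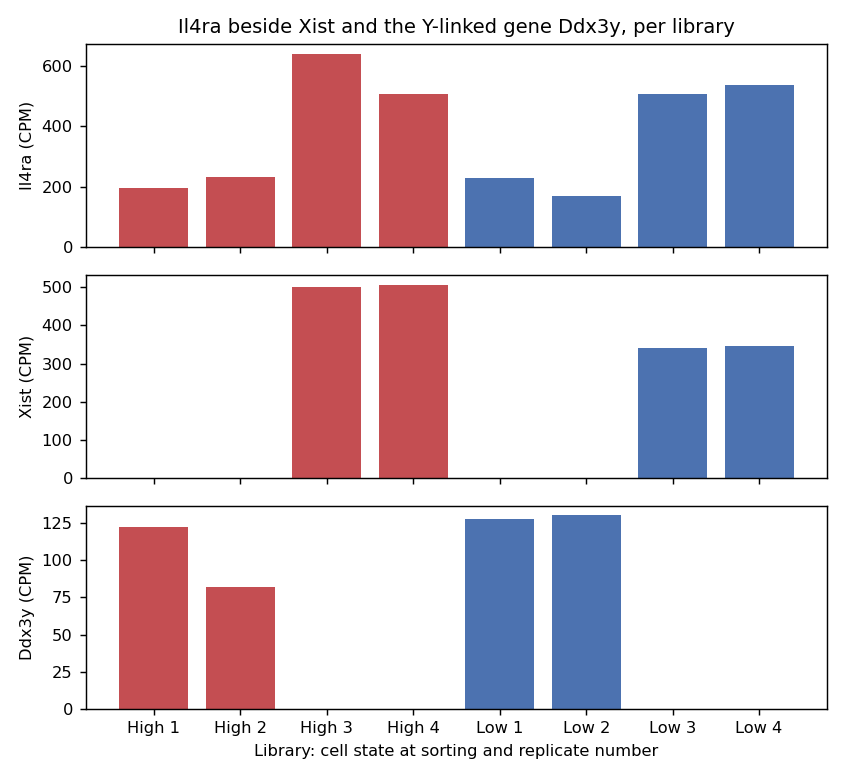
CPM of *Il4ra*, *Xist* and *Ddx3y* as bars from 0 for each of the 8 libraries, coloured red for SCA1-High-FAPs and blue for SCA1-Low-FAPs. *Il4ra* is at 505 to 640 CPM where *Xist* is present and at 168 to 230 CPM where *Ddx3y* is present.

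For the other cytokine genes the same split by *Xist* left overlapping ranges. Within the libraries with and without *Xist*, the difference in mean log2 CPM between SCA1-Low-FAPs and SCA1-High-FAPs was −0.74 and −0.75 for *Il6st* and 1.64 and 1.60 for *Il1rl1*. It was 1.80 and 2.23 for *Il11* and 0.78 and 0.55 for *Csf1*. For *Il33* it was −1.94 with *Xist* and 0.61 without, so that its lower mean in SCA1-Low-FAPs came from replicates 3 and 4.

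Signal transducers and response genes of the same pathways were counted from the list of 76 other genes, of which 8 had no counts and 50 were tested. The 8 called genes were 16.0% of those tested, beside 7.68% of all genes, with 3 of them up in SCA1-Low-FAPs and 5 up in SCA1-High-FAPs. Over the 50 the median difference was −0.25 on the log2 scale. The lists, too, were chosen with earlier results of these data known. Of the JAK and STAT genes, 0 of 8 tested were called by edgeR in the main fit, with 2 at an unadjusted p under 0.05. DESeq2 called 1, *Stat5a*, which was named after its values were seen. With at least 10 counts required in every library, edgeR called *Stat5a* too (log2 fold change −1.10, edgeR adjusted p = 0.0342). It was called in 0 of the 8 fits that left out 1 library. *Jak1*, which encodes a kinase used by gp130, was at 781 to 944 CPM and 752 to 859 CPM (log2 fold change −0.10, edgeR adjusted p = 0.745). *Stat3* was at 505 to 662 CPM and 503 to 541 CPM (log2 fold change −0.21, edgeR adjusted p = 0.403).

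Of 7 tested genes for feedback on these pathways, *Socs2*, a suppressor of cytokine signalling, was called at 121 to 152 CPM in SCA1-High-FAPs and 175 to 272 CPM in the SCA1-Low-FAPs libraries (log2 fold change 0.57, edgeR adjusted p = 0.0465). Its call was kept without SCA1-Low-FAPs replicate 3 and lost in the other 7 fits that left out 1 library, with adjusted p up to 0.209. *Cish*, another suppressor from this list, named after its values were seen, went the other way at 3.62 to 12.9 CPM in SCA1-High-FAPs and 0 to 3.17 CPM in the other cell state. It had too few counts for the main test. DESeq2 called it (log2 fold change −2.76, DESeq2 adjusted p = 0.00767), as did edgeR without a filter beyond 1 count (edgeR adjusted p = 0.0112). Some edgeR fits that left out 1 library also tested *Cish*. It was called without SCA1-High-FAPs replicate 2 or SCA1-Low-FAPs replicate 3. Without SCA1-Low-FAPs replicate 1, 2 or 4 it was not called (edgeR adjusted p = 0.102, 0.0668 and 0.101). The phosphatase gene *Ptpn11* had a log2 fold change of 0.08 (edgeR adjusted p = 0.82). Of 10 STAT3 response genes, *Timp1*, an inhibitor of metalloproteinases, was called at 464 to 767 CPM and 1014 to 1327 CPM (log2 fold change 0.96, edgeR adjusted p = 0.00185), and *Junb* was at −0.17 (edgeR adjusted p = 0.717). Of 13 tested genes of the MyD88 and NF-kB route used by ST2, 0 were called by edgeR or DESeq2 and 0 had an unadjusted p under 0.05 by edgeR, with log2 fold changes of −0.25 for *Nfkbia* and −0.03 for *Rela*.

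**Figure D4:**
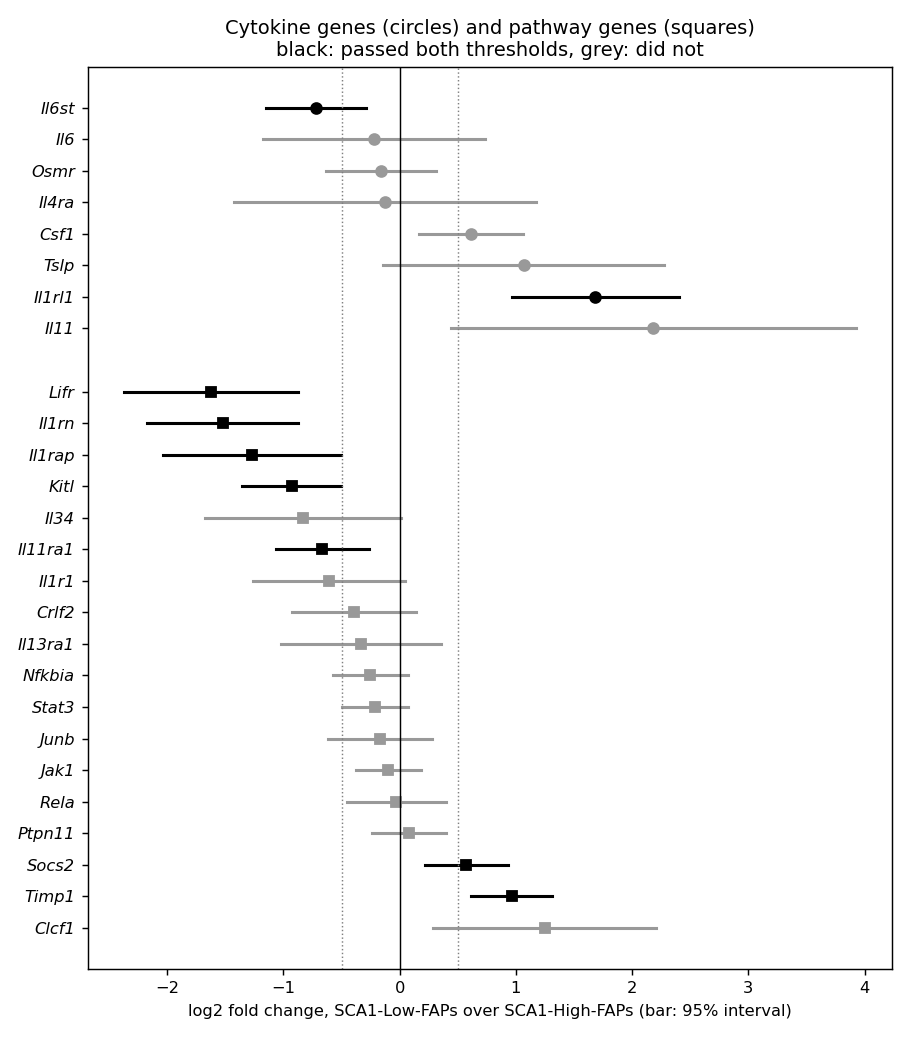
Log2 fold change, in SCA1-Low-FAPs relative to SCA1-High-FAPs, with its 95% interval for the 8 tested cytokine and receptor genes (circles) and 18 pathway genes (squares), with dotted lines at 0.5 either side of 0. Genes in black were called: *Il6st* and *Il1rl1* among the circles, on opposite sides of 0, and 7 of the squares.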

How the data were processed

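RNA-seq libraries (QuantSeq 3′ mRNA) of 4 SCA1-High-FAPs and 4 SCA1-Low-FAPs samples were used, grouped by their labels. The authors aligned the reads to mm10 with STAR and deposited raw counts per Ensembl gene from HTSeq, giving reads with several positions to no gene. The strand setting of the counting is not given in the sources used here. Of 31053 genes, 31011 matched GENCODE M21 for names and positions, and 15873 had a count. The antisense genes that overlap *Tslp* and *Il4ra* held 3 and 0 counts over all libraries. No library was a copy of another.

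Counts were compared in edgeR 4.0.16 (R 4.3.3) by its quasi-likelihood test in robust form, with TMM normalisation, filterByExpr (minimum 10 counts, 15 in total) and Benjamini-Hochberg adjustment over the 10181 genes kept, and log2 CPM used a prior count of 2. SE was taken from the fold change and the F statistic. The test was checked on simulated data, which does not show that a gene not called was unchanged. Alternatives were RLE normalisation, DESeq2 1.42.0, other filters, the replicate number as a block and each library left out. The methods of the study name no pairing, and none was used in the main test. Same-numbered samples did not deviate together over all genes tested (correlations of −0.0502 to 0.0067). This cannot decide on pairing, because *Xist* and Y-linked counts matched by replicate number in both cell states. The fit with *Xist* as a covariate was added after the data were seen.

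The genes and lists were chosen with earlier results of these data known. All 10 genes are named, and of the pathway lists each called gene and the 2 tested genes with the highest mean CPM per list; for each called cytokine or receptor gene, the 3 nearest genes. The values of 1 called pathway gene are not reported here, though counts of called genes include it. RefSeq promoter windows (GRCm38.p6) matched 9 of the 10 genes, not *Tslp*. Tables and figures used Python 3.11.15, pandas 2.3.3 and matplotlib 3.10.9.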

Additional observations from a re-analysis of the deposited data

Results flagged for a closer look

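Of 56 groups of 4 replicates among the named cytokine, receptor and pathway genes, *Lif* left out,, 5 held 1 library far from the other 3 by Dixon's criterion, which chance meets in about 1 in 20 groups. *Csf1* was at 1511 CPM in SCA1-Low-FAPs replicate 2 and at 1061 to 1112 CPM in the other replicates of that cell state. In the same library *Il11ra1* was at 166 CPM, beside 243 to 258 CPM in the others, and *Crlf2* was at 20.7 CPM, beside 36.7 to 37.5 CPM. *Il1rn* was at 258 CPM in SCA1-High-FAPs replicate 3 and at 93.1 to 109 CPM in the other 3. *Socs2* was at 272 CPM in SCA1-Low-FAPs replicate 4, beside 175 to 188 CPM.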

How the results depend on the processing

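*Il1rl1* was called under every alternative run. The 2 called cytokine and receptor genes became 4 without a filter beyond 1 count and 4 with the presence of *Xist* as a covariate, each time by adding *Il11* and *Csf1*, and DESeq2 gave 3 by adding *Csf1*. With the replicate block there were 3, by adding *Il11* (log2 fold change 2.41, edgeR adjusted p = 0.0375), and 6 pathway genes in place of 8, with *Il11ra1*, *Il1rap* and *Socs2* lost and *Il1r1* gained (edgeR adjusted p = 0.0313). *Socs2* was also lost with the *Xist* covariate (edgeR adjusted p = 0.0518). Over all genes, 782 were called in the main fit, 1065 by DESeq2 and 1052 without a filter beyond 1 count. With the *Xist* covariate 850 were called, and with the replicate block 697. No sample correlated best with its own number in the other cell state, and neither this nor the block can decide whether the samples were paired. When each library was left out in turn, 1 to 3 cytokine and receptor genes and 3 to 9 pathway genes were called. The number called over all genes ran from 410 to 1017 in these fits. *Il4ra* changed sign in 4 of these fits, with log2 fold changes from −0.39 to 0.21: it was 0.21 without SCA1-High-FAPs replicate 3, 0.02 without replicate 4, 0.05 without SCA1-Low-FAPs replicate 1 and 0.11 without replicate 2. The causes were not tested. *Lif*, with 0 counts, was not detected at this depth, and *Il33* had too few counts for the main test.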
